A study of Danio rerio with 20 samples.

Results

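Genes of DNA replication and mitosis were followed across whole zebrafish larvae that lacked aldh3a1, glo1 or both, and in wild type larvae. The members were 49 symbols that mark cells copying or dividing their chromosomes, of which 27 act in S phase and 22 in mitosis. Matched by symbol to the gene IDs of the count table, they gave 51 genes of 32520. The S-phase symbols matched 29 IDs, because mcm6 and rrm2 each carry 2 IDs, and the mitotic symbols matched 22. All 51 passed the filter on low counts. The 20 libraries fell into 4 genotypes of 5 libraries each, labelled ALDH3A1KO (aldh3a1 knockout), GLO1KO (glo1 knockout), DKO (double knockout of aldh3a1 and glo1) and WT (wild type). All of them, wild type included, were in the Tg(fli1:EGFP) line, in which the fli1 promoter drives green fluorescent protein in endothelial cells. The knockouts were made with CRISPR/Cas9. The sources used here do not state the larval age, the mutant alleles or the number of larvae behind a library.

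Totals ran from 35092716 to 37190519 counts per library. The targeted glo1 transcript averaged 3.66 ± 0.344 CPM in the glo1 knockout and 4.30 ± 0.724 CPM in the double knockout, against 66.6 ± 3.88 CPM in wild type (SD, n = 5 each), where CPM is the count scaled to the TMM-corrected library size. The aldh3a1 knockout held 78.5 ± 2.85 CPM of glo1 (SD, n = 5), so the glo1 labels held in every library. Counts of aldh3a1, which would check the other label, were not analysed here. Nothing in the labels ties a library to its own clutch or tank. The p-values therefore reflect variation among these samples, and that variation may be technical.

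A dividing cell licenses its replication origins in G1 by loading the MCM helicase with the help of ORC, CDC6 and CDT1, fires them in S phase, and copies DNA with polymerases held on the PCNA clamp. It then condenses its chromosomes and divides them under the control of CDK1, its A- and B-type cyclins, the Aurora and Polo kinases and the spindle checkpoint. Most of these transcripts are made in waves, under E2F factors towards S phase and under the MuvB complex, B-MYB and FOXM1 towards mitosis. In zebrafish larvae, dividing cells are known to lie mainly in the brain's ventricular zones, the ciliary margin of the retina, the gut, the liver, the skin and the blood-forming tissue. In whole-larva RNA, a change in the number of dividing cells and a change in RNA per dividing cell cannot be told apart.

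In the aldh3a1 knockout, 22 of the 51 genes were higher than in wild type and 1 was lower (edgeR quasi-likelihood test, Benjamini-Hochberg adjusted over 22234 genes, threshold 0.05). The higher genes included the small subunit of ribonucleotide reductase (rrm2, both IDs), the licensing inhibitor geminin (gmnn), cyclin E2 (ccne2), the clamp gene pcna, survivin (birc5a), cyclins A2, B1 and B3, and cdk1. The lower gene was tyms, which encodes thymidylate synthase. The classical marker mki67 and the mitotic genes top2a, plk1, bub1, ttk, cdc20, cenpe, cenpf, kif11 and tpx2 did not pass the test. The median absolute log2 fold change was 0.15 over the 51 genes and 0.39 over all genes tested. These sets were not matched for expression level, and the part of level in this gap was not tested.

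Of the members' calls in this comparison, all but that of tyms were upward. Here 61.3% of all genes tested were called, 29.4% higher and 32% lower. Of the members, 45.1% were called, 43.1% higher and 1.96% lower. The median log2 fold change was 0.15 over the members and 0.00 over all genes. Among S-phase members 14 of 29 were higher and 1 was lower, with a median of 0.17. Among mitotic members 8 of 22 were higher, with a median of 0.10, and none was lower by edgeR. The 8 were also the only mitotic members at an unadjusted p under 0.05. The shares higher were 48.3% of S-phase members and 36.4% of mitotic members, the latter near the 29.4% of all genes.

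**Figure D1:**
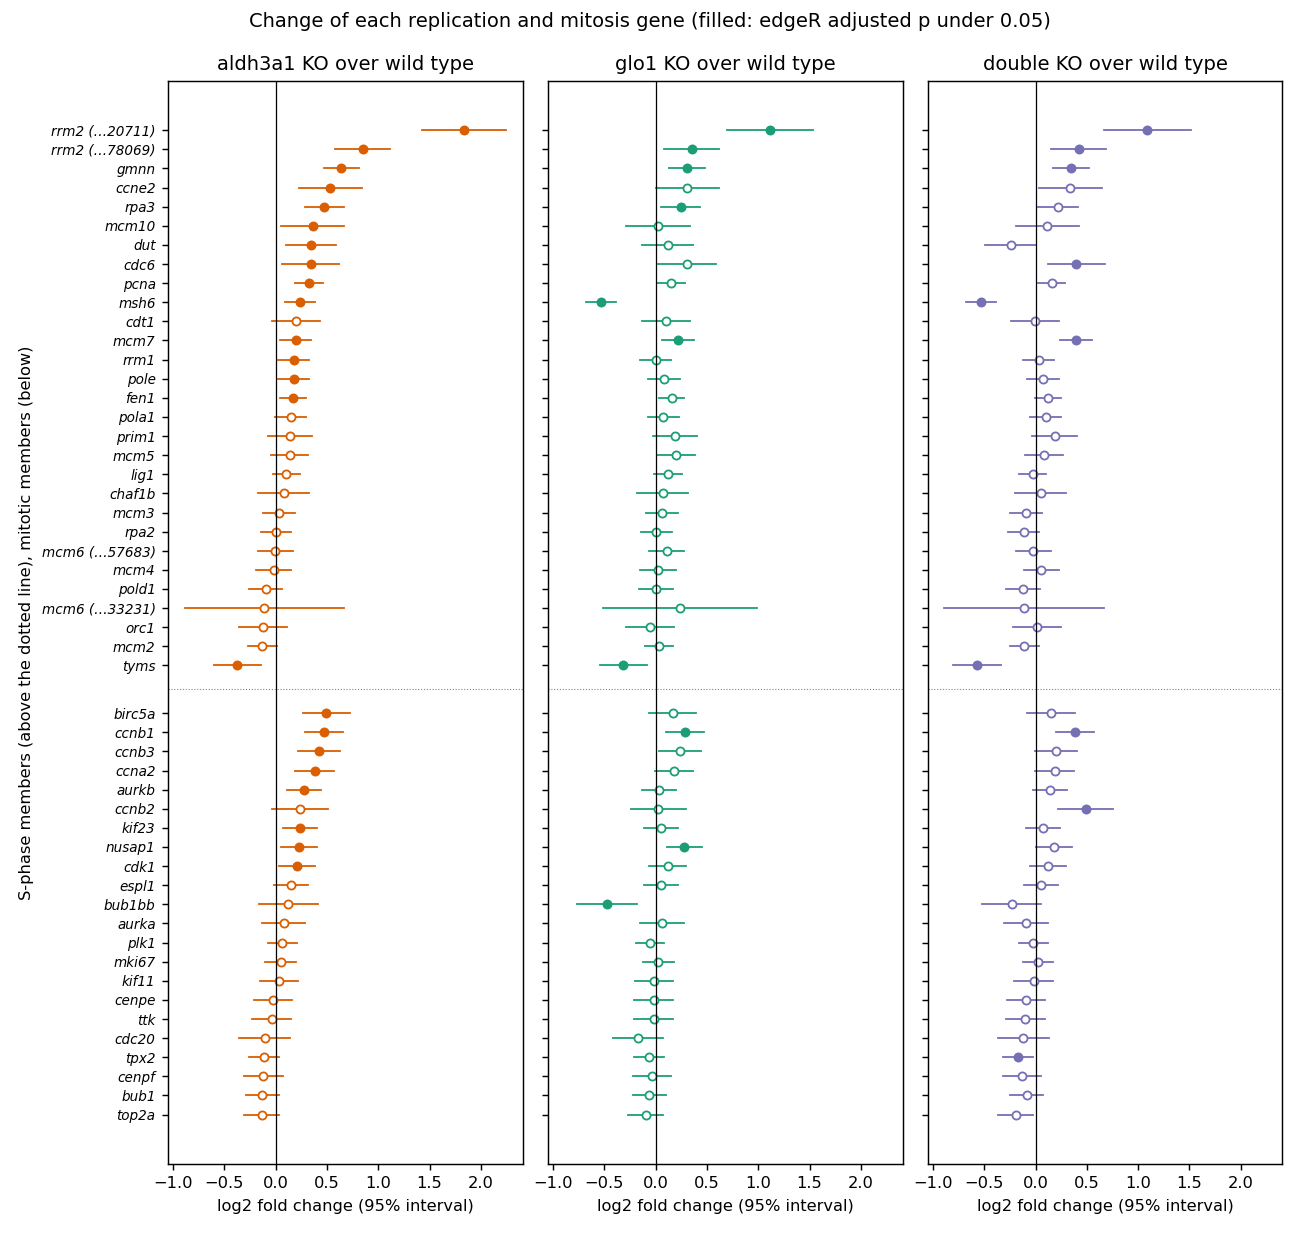
Log2 fold change of each of the 51 genes in the aldh3a1 knockout, the glo1 knockout and the double knockout over wild type, with its 95% interval; filled points passed the edgeR test. Filled points lie to the right for 22 genes in the aldh3a1 knockout and for 7 genes in each of the other knockouts, and to the left for 1, 3 and 3 genes.

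Nucleotide supply held the member with the largest fold change in each comparison with wild type. Ribonucleotide reductase makes the building blocks of DNA, and its small subunit is the one that limits it during the cell cycle. rrm2 (ENSDARG00000020711) was measured at 2.35, 2.44, 3.27, 3.15 and 2.67 CPM in the aldh3a1 knockout, at 1.08, 1.88, 1.91, 1.93 and 1.61 CPM in the glo1 knockout, at 1.27, 1.96, 1.57, 1.55 and 1.90 CPM in the double knockout and at 0.534, 0.669, 0.968, 0.780 and 0.916 CPM in wild type. No library of any knockout overlapped with wild type, and every aldh3a1 knockout library lay above every library of the other knockouts. The log2 fold change over wild type was 1.84 in the aldh3a1 knockout (SE 0.20, edgeR adjusted p = 3.25e-08), 1.12 in the glo1 knockout (SE 0.20, adjusted p = 0.000259) and 1.09 in the double knockout (SE 0.20, adjusted p = 9.56e-05).

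The other ID of that symbol was also called higher in each knockout, at smaller folds. rrm2 (ENSDARG00000078069) was measured at 127, 113, 176, 148 and 125 CPM in the aldh3a1 knockout, at 89.8, 101, 102, 102 and 94.0 CPM in the glo1 knockout, at 98.7, 109, 105, 78.3 and 122 CPM in the double knockout and at 94.5, 62.4, 84.4, 70.5 and 71.4 CPM in wild type. The aldh3a1 knockout again lay wholly above wild type, while the glo1 and double knockouts overlapped with its range. Loss of aldh3a1 gave it a log2 fold change of 0.85 (SE 0.13, edgeR adjusted p = 1.15e-05), loss of glo1 0.35 (SE 0.13, adjusted p = 0.0397) and loss of both 0.42 (SE 0.13, adjusted p = 0.00967). Reads could be shared between the IDs, so how the change divides between them is uncertain. The large subunit gene rrm1 was called in the aldh3a1 knockout, with a log2 fold change of 0.18, and not in the other knockouts.

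Thymidylate synthase makes thymidine monophosphate, and dUTPase (dut) keeps uracil out of DNA while supplying the substrate of that step. In the aldh3a1 knockout these neighbours in the pathway were called in opposite directions. Tyms averaged 12.6 ± 1.75 CPM in the aldh3a1 knockout, 13.1 ± 1.11 CPM in the glo1 knockout and 10.98 ± 2.08 CPM in the double knockout, against 16.3 ± 1.80 in wild type (SD, n = 5 each). It fell by 0.37, 0.32 and 0.57 on the log2 scale in the aldh3a1, glo1 and double knockouts (edgeR adjusted p = 0.00587, 0.0329 and 0.000178), and each range overlapped with that of wild type. Dut was higher in the aldh3a1 knockout, at 61.7 ± 8.66 CPM against 48.6 ± 5.26 CPM in wild type (SD, n = 5 each; log2 fold change 0.34, edgeR adjusted p = 0.0165). It stood at 52.8 ± 11.3 CPM in the glo1 knockout and 41.1 ± 3.86 CPM in the double knockout, neither of which passed the test against wild type.

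Of 12 IDs for origin licensing and firing, the aldh3a1 knockout had 4 higher, the glo1 knockout 2 and the double knockout 3. Those of the aldh3a1 and glo1 knockouts are shares of 33.3% and 16.7%. Over all genes tested, 29.4%, 14.6% and 23.9% were higher in the aldh3a1, glo1 and double knockouts, so each count was near the background. Geminin, which binds CDT1 and blocks a second round of licensing, was measured at 15.8, 13.4, 13.4, 14.4 and 13.9 CPM (gmnn) in the aldh3a1 knockout, at 10.03, 12.4, 12.1, 10.9 and 10.9 CPM in the glo1 knockout, at 11.5, 11.9, 11.6, 11.3 and 11.6 CPM in the double knockout and at 9.17, 7.66, 9.58, 8.92 and 10.2 CPM in wild type. The aldh3a1 and double knockouts did not overlap with wild type, and glo1 knockout replicate 1 fell within its range. The log2 fold changes of gmnn were 0.64, 0.31 and 0.34 in the aldh3a1, glo1 and double knockouts (SE 0.08 each, edgeR adjusted p = 4.89e-07, 0.00721 and 0.00139). Cdc6, the loading factor, was higher in the aldh3a1 knockout (log2 fold change 0.34) and the double knockout (0.40), and mcm10, which acts when origins fire, in the aldh3a1 knockout (0.36). Cdt1 and orc1 were called in no comparison with wild type.

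Of the 7 IDs of the MCM2 to MCM7 ring, mcm7 was called in each knockout and the other 6 in none. That is 14.3% higher in each knockout, beside 29.4%, 14.6% and 23.9% of all genes tested in the aldh3a1, glo1 and double knockouts. Mcm7 was measured at 118, 91.7, 110, 120 and 127 CPM in the aldh3a1 knockout, at 115, 116, 117, 123 and 104 CPM in the glo1 knockout, at 129, 125, 131, 134 and 132 CPM in the double knockout and at 92.8, 89.3, 102, 93.9 and 117 CPM in wild type. The double knockout libraries all lay above wild type, whereas the other knockouts overlapped with it. The log2 fold changes of mcm7 were 0.19 (edgeR adjusted p = 0.0264), 0.22 (adjusted p = 0.0273) and 0.40 (adjusted p = 0.000104) in the aldh3a1, glo1 and double knockouts. The other 6 ring IDs ranged in log2 fold change from -0.13 for mcm2 to 0.14 for mcm5 in the aldh3a1 knockout. One of them, mcm6 (ENSDARG00000033231), was measured at under 1 CPM in every library, and its 95% interval in that comparison ran from -0.89 to 0.66.

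Cyclin E2, which drives entry into S phase with CDK2, rose in the aldh3a1 knockout (ccne2 log2 fold change 0.53, SE 0.15, edgeR adjusted p = 0.00346), although its replicate 2 at 14.6 CPM lay among the wild type libraries, which ran from 13.5 to 17.8 CPM. Ccne2 was not called in the other knockouts, with changes of 0.31 on loss of glo1 and 0.34 on loss of both genes, whose 95% intervals began just above 0.

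At the replication fork, 5 of 11 genes (45.5%, beside 29.4% of all genes tested) were higher in the aldh3a1 knockout. They were pcna, the sliding clamp; rpa3, the smallest subunit of the single-strand binding protein (log2 fold change 0.48); fen1, which trims Okazaki fragments (0.17); pole, the leading-strand polymerase (0.17); and msh6, a mismatch sensor. Pcna was measured at 248, 234, 289, 237 and 240 CPM in the aldh3a1 knockout, at 232, 220, 219, 224 and 213 CPM in the glo1 knockout, at 211, 257, 222, 198 and 223 CPM in the double knockout and at 211, 185, 202, 213 and 186 CPM in wild type. All aldh3a1 knockout libraries lay above all wild type libraries, and so did those of the glo1 knockout, whose lowest library had 213.0 CPM against 212.9 CPM in the highest wild type library. The double knockout overlapped with wild type. The log2 fold change of pcna was 0.32 in the aldh3a1 knockout (SE 0.07, edgeR adjusted p = 0.000158), and its changes of 0.15 on loss of glo1 and 0.16 on loss of both genes did not pass the test. The polymerase genes pola1 and pold1, the primase gene prim1, the ligase gene lig1, the subunit gene rpa2 and the chromatin assembly gene chaf1b were called in no comparison with wild type.

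**Figure D2:**
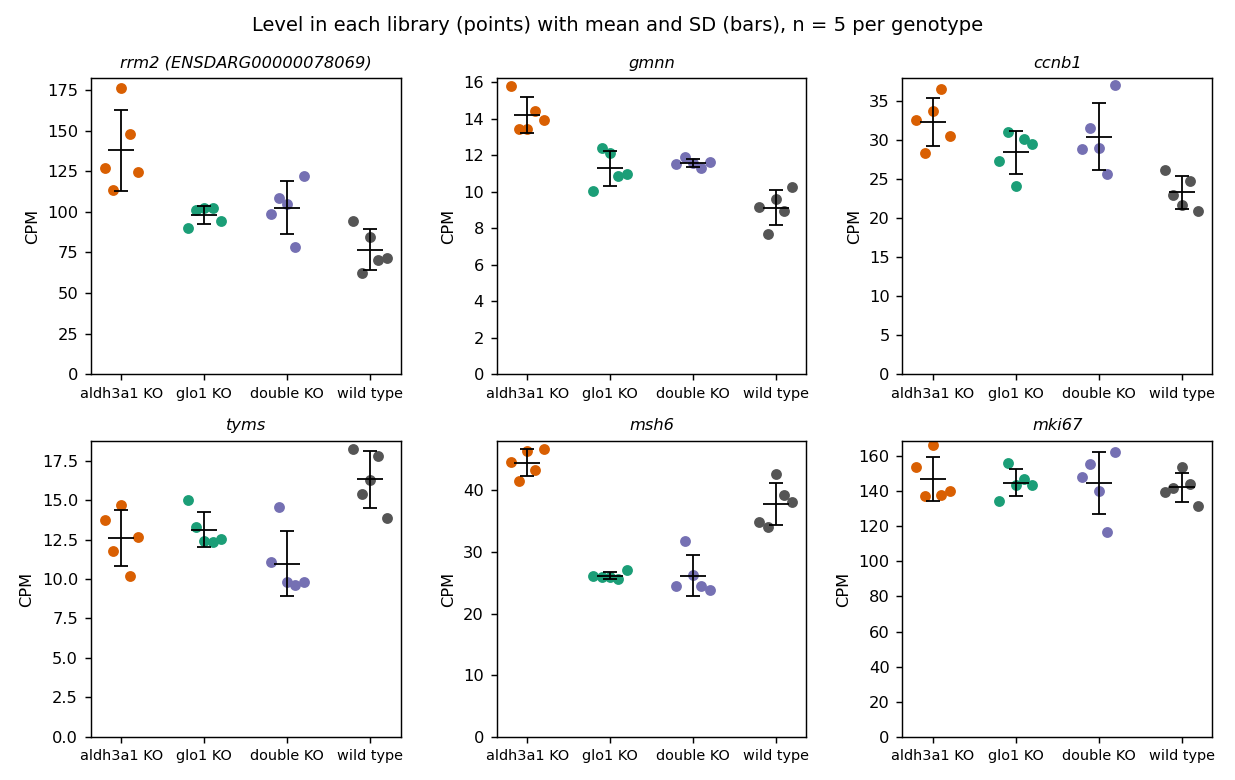
CPM of rrm2 (ENSDARG00000078069), gmnn, ccnb1, tyms, msh6 and mki67 in each library, with the mean and SD of 5 libraries per genotype as bars; axes start at 0. Gmnn lies highest in the aldh3a1 knockout, tyms lies highest in wild type, msh6 separates the glo1 and double knockouts from the other genotypes, and mki67 overlaps in all 4 genotypes.

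Msh6 was the one member called lower in both genotypes without glo1 and called higher in the aldh3a1 knockout. It was measured at 44.7, 41.5, 46.3, 43.3 and 46.8 CPM in the aldh3a1 knockout, at 26.1, 26.02, 25.9, 25.6 and 27.0 CPM in the glo1 knockout, at 24.4, 31.8, 26.3, 24.5 and 23.8 CPM in the double knockout and at 34.9, 34.1, 42.6, 39.3 and 38.1 CPM in wild type. Every glo1 and double knockout library lay below every library of the genotypes with glo1. The log2 fold change of msh6 was -0.53 on loss of glo1 (SE 0.07, edgeR adjusted p = 1.86e-05) and also -0.53 on loss of both genes (SE 0.07, adjusted p = 1.94e-06). On loss of aldh3a1 it was 0.24 (SE 0.07, adjusted p = 0.00592). In the gene order of assembly GRCz12tu, msh6 and glo1 lie on the same chromosome, with 52 protein-coding genes between them.

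Of the 8 mitotic kinase and cyclin genes, the aldh3a1 knockout had 5 higher, the glo1 knockout 1 and the double knockout 2. In the aldh3a1 knockout that is 62.5%, beside 29.4% of all genes tested. In the glo1 knockout it is 12.5%, beside 14.6%. The count in the double knockout was also near the background, where 23.9% of all genes were higher. Cyclin B1, the partner of CDK1 at entry into mitosis, was measured at 32.6, 28.4, 33.7, 36.5 and 30.6 CPM (ccnb1) in the aldh3a1 knockout, at 27.3, 31.1, 24.1, 30.2 and 29.5 CPM in the glo1 knockout, at 28.9, 31.5, 28.9, 25.6 and 37.1 CPM in the double knockout and at 26.1, 23.0, 21.7, 24.8 and 20.9 CPM in wild type. All aldh3a1 knockout libraries lay above wild type, while 1 library in each of the glo1 and double knockouts fell within its range. Ccnb1 was the mitotic gene called in each knockout, with log2 fold changes of 0.47, 0.29 and 0.38 in the aldh3a1, glo1 and double knockouts (SE 0.09 each, edgeR adjusted p = 7.23e-05, 0.0164 and 0.00102).

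Cyclin B3 works with CDK1 in the later steps of division. Ccnb3 was measured at 11.4, 8.95, 9.67, 9.68 and 9.79 CPM in the aldh3a1 knockout, at 8.34, 9.88, 7.18, 9.12 and 9.24 CPM in the glo1 knockout, at 8.83, 8.34, 8.43, 7.13 and 9.68 CPM in the double knockout and at 7.98, 7.15, 7.22, 7.54 and 7.13 CPM in wild type. The aldh3a1 knockout lay wholly above wild type and the other knockouts overlapped with it; ccnb3 was called in the aldh3a1 knockout (log2 fold change 0.42, SE 0.10, edgeR adjusted p = 0.000683). Ccna2, the cyclin that spans S phase and mitosis, was likewise called in the aldh3a1 knockout, with a change of 0.38. Ccnb2 was measured at 5.01, 4.24, 5.47, 5.48 and 4.77 CPM in the aldh3a1 knockout, at 5.17, 4.04, 3.99, 4.53 and 3.83 CPM in the glo1 knockout, at 5.34, 7.01, 6.23, 5.37 and 5.79 CPM in the double knockout and at 4.95, 3.75, 3.87, 5.15 and 3.44 CPM in wild type. It stood above all wild type libraries in the double knockout, where it was called (log2 fold change 0.49, SE 0.13, edgeR adjusted p = 0.00286).

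Of the kinase genes among the 8 mitotic kinase and cyclin genes, those called were cdk1 and aurkb. Cdk1 was measured at 34.9, 28.5, 32.8, 34.1 and 36.8 CPM in the aldh3a1 knockout, at 34.9, 32.2, 26.9, 33.2 and 29.7 CPM in the glo1 knockout, at 29.4, 34.5, 30.3, 28.9 and 34.3 CPM in the double knockout and at 32.5, 23.9, 28.9, 32.3 and 27.1 CPM in wild type. The 4 genotypes overlapped, and the call in the aldh3a1 knockout rested on a log2 fold change of 0.21 (SE 0.09, edgeR adjusted p = 0.0398). Aurkb, the kinase of the chromosomal passenger complex, rose by 0.28 there (adjusted p = 0.00479), whereas aurka and plk1 were called in no comparison.

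Survivin sits in the same passenger complex as Aurora B. Birc5a was measured at 11.7, 8.62, 11.9, 11.3 and 12.5 CPM in the aldh3a1 knockout, at 9.73, 8.42, 8.58, 9.60 and 8.40 CPM in the glo1 knockout, at 9.67, 8.14, 9.62, 6.59 and 10.1 CPM in the double knockout and at 8.54, 7.43, 7.56, 8.32 and 7.95 CPM in wild type. All aldh3a1 knockout libraries lay above wild type, replicate 2 by the least, and the log2 fold change was 0.49 (SE 0.11, edgeR adjusted p = 0.000440). Kif23, a motor of cytokinesis, rose by 0.24 in the same comparison.

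Nusap1, a spindle microtubule protein, was called in both single knockouts. It was measured at 36.3, 28.6, 32.0, 31.5 and 34.1 CPM in the aldh3a1 knockout, at 30.9, 37.6, 29.7, 34.2 and 36.1 CPM in the glo1 knockout, at 30.0, 34.4, 31.9, 29.1 and 31.8 CPM in the double knockout and at 30.2, 25.02, 29.8, 30.8 and 23.0 CPM in wild type. The ranges overlapped in every comparison, with log2 fold changes of 0.23 in the aldh3a1 knockout (SE 0.08, edgeR adjusted p = 0.0211) and 0.28 in the glo1 knockout (SE 0.08, adjusted p = 0.0124).

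Several standard marks of mitosis did not pass the test. Mki67, the gene of the Ki-67 antigen of cycling cells, was measured at 154, 137, 166, 138 and 140 CPM in the aldh3a1 knockout, at 134, 156, 144, 147 and 144 CPM in the glo1 knockout, at 148, 156, 140, 117 and 163 CPM in the double knockout and at 140, 142, 154, 144 and 131 CPM in wild type. The ranges overlapped throughout, and the 95% intervals of its log2 fold change over wild type ran from -0.10 to 0.20, from -0.12 to 0.18 and from -0.12 to 0.17 in the aldh3a1, glo1 and double knockouts. Top2a, which untangles chromosomes, was measured at 99.1, 72.6, 86.6, 77.8 and 91.4 CPM in the aldh3a1 knockout, at 85.3, 89.2, 82.8, 94.0 and 88.2 CPM in the glo1 knockout, at 84.8, 82.5, 92.5, 67.0 and 84.1 CPM in the double knockout and at 105, 89.8, 95.4, 99.3 and 80.6 CPM in wild type. Its group means all lay below wild type and overlapped with it, with intervals from -0.31 to 0.04, from -0.27 to 0.08 and from -0.36 to -0.02. Other settings called top2a lower in the double knockout: upper quartile factors, total counts, limma-voom and a filter of 1 CPM. So did leaving out any 1 of 4 libraries. In the aldh3a1 knockout it was called lower with total counts and without aldh3a1 knockout replicate 1. The kinetochore motors and proteins cenpe and cenpf and the spindle motor kif11 were called in no comparison with TMM factors.

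The spindle checkpoint held a single call against wild type. Bub1bb, the gene of the checkpoint kinase BUBR1, was measured at 10.5, 6.20, 10.8, 7.11 and 8.07 CPM in the aldh3a1 knockout, at 5.84, 5.33, 5.07, 6.04 and 5.99 CPM in the glo1 knockout, at 6.75, 7.85, 7.10, 5.13 and 6.58 CPM in the double knockout and at 9.30, 7.87, 7.72, 8.16 and 6.22 CPM in wild type. The glo1 knockout lay wholly below wild type, and bub1bb fell by 0.47 there on the log2 scale (SE 0.14, edgeR adjusted p = 0.0127). Tpx2, which activates Aurora A on the spindle, was measured at 48.0, 45.1, 49.6, 43.7 and 48.2 CPM in the aldh3a1 knockout, at 43.5, 50.2, 42.9, 50.4 and 55.9 CPM in the glo1 knockout, at 44.2, 49.1, 46.7, 40.6 and 45.5 CPM in the double knockout and at 56.5, 50.5, 48.6, 52.1 and 46.4 CPM in wild type. Its log2 fold change in the double knockout was -0.17, with overlapping ranges (SE 0.07, edgeR adjusted p = 0.0497). The checkpoint kinases bub1 and ttk, the anaphase activator cdc20 and the separase gene espl1 were called in no comparison.

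In the glo1 knockout as a whole, 7 of the 51 genes were higher than in wild type and 3 were lower. The higher ones were rrm2 (both IDs), gmnn, mcm7, rpa3, ccnb1 and nusap1, and the lower ones were msh6, bub1bb and tyms. Over all genes tested 32.8% were called, 14.6% higher and 18.1% lower, beside 19.6% of the members, 13.7% higher and 5.88% lower. The share of members called higher was thus close to the background. S-phase members had a median log2 fold change of 0.11 and mitotic members of 0.03, beside -0.01 over all genes.

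In the double knockout, 7 of the 51 were higher than in wild type and 3 were lower: rrm2 (both IDs), gmnn, cdc6, mcm7, ccnb1 and ccnb2 against tyms, msh6 and tpx2. Over all genes tested 50.3% were called, 23.9% higher and 26.4% lower, beside 19.6% of the members, 13.7% higher and 5.88% lower. Both shares of the members lay below the background. The medians were 0.06 for S-phase members and 0.00 for mitotic members, beside 0.01 over all genes. These comparisons share the wild type libraries, and their counts are therefore not independent of each other.

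**Figure D3:**
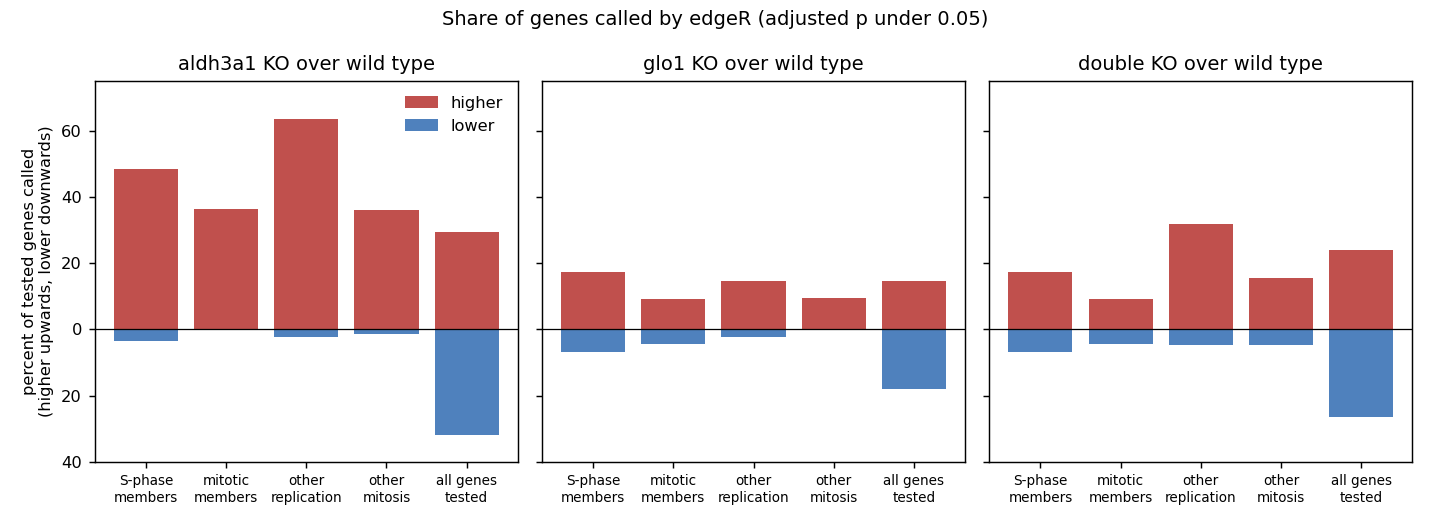
Percent of tested genes called higher (upward bars) and lower (downward bars) in each knockout over wild type, for S-phase members, mitotic members, the other replication and mitosis genes and all genes tested. In the aldh3a1 knockout 48.3% of S-phase members and 36.4% of mitotic members were higher, beside 29.4% of all genes.

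Part of these calls did not hold when 1 library was left out. Of the 23 calls in the aldh3a1 knockout, 15 held whichever library was left out; those of mcm7, mcm10, cdc6, rrm1, pole, fen1, cdk1 and nusap1 did not. The cdk1 call was lost without aldh3a1 knockout replicate 1, 4 or 5 or wild type replicate 2, 3 or 5 (edgeR adjusted p from 0.0575 to 0.140), and the fen1 call without aldh3a1 knockout replicate 3 (adjusted p = 0.0759). In the glo1 knockout 6 of 10 calls held, and those of rpa3, mcm7, tyms and rrm2 (ENSDARG00000078069) did not; 4 genes were higher in place of 7 without glo1 knockout replicate 2 or 4 or wild type replicate 2. In the double knockout 8 of 10 held, the cdc6 call being lost without double knockout replicate 5 or wild type replicate 2 (adjusted p 0.0555 at most) and the tpx2 call without any 1 of 14 libraries (adjusted p from 0.0505 to 0.154). There 11 or 12 genes were higher in place of 7 without double knockout replicate 3 or 4, wild type replicate 4 or aldh3a1 knockout replicate 4.

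The split between higher and lower calls also moved with the scaling of the libraries. With total counts in place of TMM factors, the median log2 fold change of all genes shifted by -0.11 for the aldh3a1, -0.10 for the glo1 and -0.15 for the double knockout. The members then split into 10 higher and 7 lower in the aldh3a1 knockout, and into 4 higher and 15 lower in the double knockout, and 1 was higher in the glo1 knockout. With TMM factors computed without ribosomal protein and mitochondrial genes, 11 members were higher in the glo1 knockout and 15 members were higher in the double knockout. Every member called in a comparison with wild type kept its direction under each of the 4 other scalings. The calls held under all of them for both rrm2 IDs, gmnn, ccne2, rpa3, pcna, ccna2, ccnb1, ccnb3, birc5a and tyms in the aldh3a1 knockout, for rrm2 (ENSDARG00000020711), msh6, bub1bb and tyms in the glo1 knockout, and for rrm2 (ENSDARG00000020711), mcm7, ccnb1, ccnb2, msh6 and tyms in the double knockout.

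S-phase and mitotic genes were also set against each other within each library. A level was taken per library as the median over the genes of log2(CPM + 0.5) minus the wild type mean, and it is a description of the list with no test. S-phase levels averaged 0.14 ± 0.11 for the aldh3a1, 0.10 ± 0.02 for the glo1 and 0.07 ± 0.12 for the double knockout, against 0.01 ± 0.07 in wild type (SD, n = 5 each). Mitotic levels averaged 0.10 ± 0.11, 0.02 ± 0.07 and 0.00 ± 0.15 in the aldh3a1, glo1 and double knockouts, against -0.01 ± 0.11 in wild type (SD, n = 5 each). The glo1 knockout libraries lay above every wild type library for S phase, but barely, the lowest at 0.077 against 0.073 in the highest wild type library. Every other pair of a knockout and wild type overlapped by this level, for S phase and for mitosis.

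The difference between the S-phase and the mitotic level overlapped in all genotypes. It averaged 0.04 ± 0.12 for the aldh3a1, 0.08 ± 0.08 for the glo1 and 0.07 ± 0.10 for the double knockout, against 0.01 ± 0.10 in wild type (SD, n = 5 each). Within a genotype the libraries differed by more than the genotype means: in the double knockout the mitotic level was -0.25 in replicate 4 and 0.15 in replicate 5, and in wild type it was -0.18 in replicate 5 and 0.10 in replicate 1. Summed over the list, S-phase genes came to 1243 ± 106.9 CPM in the aldh3a1 knockout, 1144 ± 16.4 CPM in the glo1 knockout and 1127 ± 91.5 CPM in the double knockout, against 1057 ± 45.8 in wild type (SD, n = 5 each). By this sum the aldh3a1 knockout (1150 to 1425 CPM) and the glo1 knockout (1123 to 1165 CPM) lay wholly above wild type (992.1 to 1109 CPM). The double knockout, from 1020 to 1264 CPM, overlapped with wild type. Abundant genes weigh most in such a sum. Pcna averaged 249.5 CPM in the aldh3a1 and 221.8 CPM in the glo1 knockout, against 199.4 CPM in wild type. The rrm2 ID ENSDARG00000078069 averaged 137.9 and 97.8 CPM there, against 76.65 CPM in wild type. Mitotic genes came to 743 ± 59.3, 718 ± 36.2 and 707 ± 68.3 CPM in the aldh3a1, glo1 and double knockouts, against 709 ± 48.9 in wild type.

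**Figure D4:**
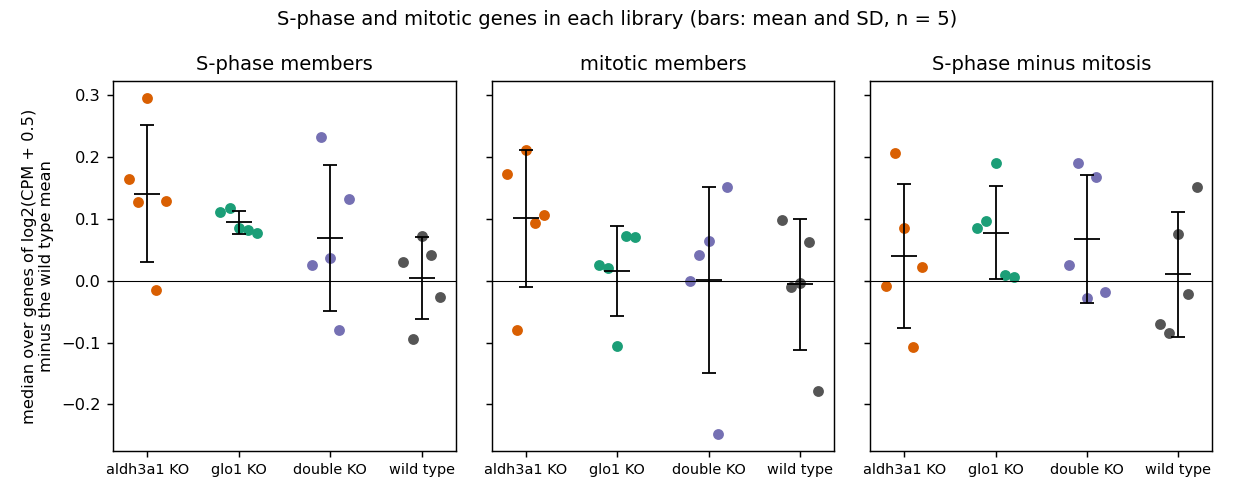
Level of the S-phase members, of the mitotic members and their difference in each library, as the median over genes of log2(CPM + 0.5) minus the wild type mean; bars are the mean and SD of 5 libraries. S-phase levels average 0.14 in the aldh3a1 knockout and 0.01 in wild type, and the difference between S phase and mitosis overlaps in all 4 genotypes.

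Adding the loss of glo1 to the aldh3a1 knockout lowered 7 of the 51 genes and raised none by edgeR. They were msh6 (-0.77), rrm2 (ENSDARG00000020711) (-0.75), dut (-0.59), rrm2 (ENSDARG00000078069) (-0.43), birc5a (-0.34), gmnn (-0.29) and rpa3 (-0.26), given as log2 fold changes of the double knockout over the aldh3a1 knockout, with edgeR adjusted p between 1.64e-07 and 0.0466. Of these, 6 are among the 29 S-phase IDs (20.7%) and 1 is among the 22 mitotic IDs (4.55%). Over all genes tested 11.1% were higher and 11.6% were lower, beside 13.7% of the members lower. The share of members called lower was thus near the background. At an unadjusted p under 0.05 there were 12 members, of which mcm7 alone was higher, and DESeq2 called none higher and 7 lower. The calls of msh6, dut, gmnn and rrm2 (ENSDARG00000020711) held whichever library was left out, those of rpa3, birc5a and rrm2 (ENSDARG00000078069) did not, and 4 genes were lower without aldh3a1 knockout replicate 3.

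Adding the loss of aldh3a1 to the glo1 knockout changed 1 member, ccnb2, which was higher in the double knockout (log2 fold change 0.46, SE 0.13, edgeR adjusted p = 0.0235). Over all genes tested 4.52% were higher and 6.82% were lower. No member was lower by edgeR, 6 members were at an unadjusted p under 0.05, and DESeq2 and limma-voom each called dut lower (-0.36 and -0.39). The ccnb2 call was lost without glo1 knockout replicate 2, 3 or 5 or double knockout replicate 2 (adjusted p from 0.0504 to 0.0697), and 4 members were lower without double knockout replicate 2. The 22 genes that rose on loss of aldh3a1 in the presence of glo1 had log2 fold changes here from -0.36 for dut to 0.18 for mcm7, none of them called by edgeR. Among them the rrm2 IDs stood at -0.03 and 0.07, gmnn at 0.04, pcna at 0.00, ccnb1 at 0.10 and birc5a at -0.02.

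The interaction, which is the change on loss of aldh3a1 without glo1 minus the same change with glo1, tests whether these changes differ from those in the presence of glo1. It was called and negative for 12 of the 51 genes, and called and positive for none by edgeR. The S-phase genes among them were both rrm2 IDs (-1.87 and -0.78), dut (-0.71), gmnn (-0.60), rpa3 (-0.50), pcna (-0.32) and lig1 (-0.25), and the mitotic genes were birc5a (-0.51), ccnb3 (-0.46), ccnb1 (-0.38), ccna2 (-0.37) and nusap1 (-0.33). The edgeR adjusted p ran from 3.20e-05 for rrm2 (ENSDARG00000020711) to 0.0326 for nusap1. Over all genes tested 18.7% had a positive and 16.9% a negative interaction, beside 23.5% of the members negative. At an unadjusted p under 0.05 there were 15 members, all negative, and DESeq2 called none positive and 13 negative.

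The largest interaction among the members was that of rrm2 (ENSDARG00000020711). Its log2 fold change on loss of aldh3a1 was -0.03 in the absence of glo1, with a 95% interval from -0.42 to 0.37, and 1.84 in its presence. For dut the same changes were -0.36 without glo1, where it was not called, and 0.34 with it. The interactions of msh6 (-0.23) and tyms (0.12) were not called, and mki67 was at -0.05 with a 95% interval from -0.26 to 0.16. The interaction calls of ccnb1, ccna2, lig1 and nusap1 did not hold with each library left out. Their edgeR adjusted p then reached up to 0.0546, 0.0548, 0.0689 and 0.0697. The ccnb1 call was lost without aldh3a1 knockout replicate 4. That of ccna2 was lost without aldh3a1 knockout replicate 1 or 3, double knockout replicate 3 or 4 or wild type replicate 5. Those of lig1 and nusap1 were lost without any 1 of 6 and 8 libraries.

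**Figure D5:**
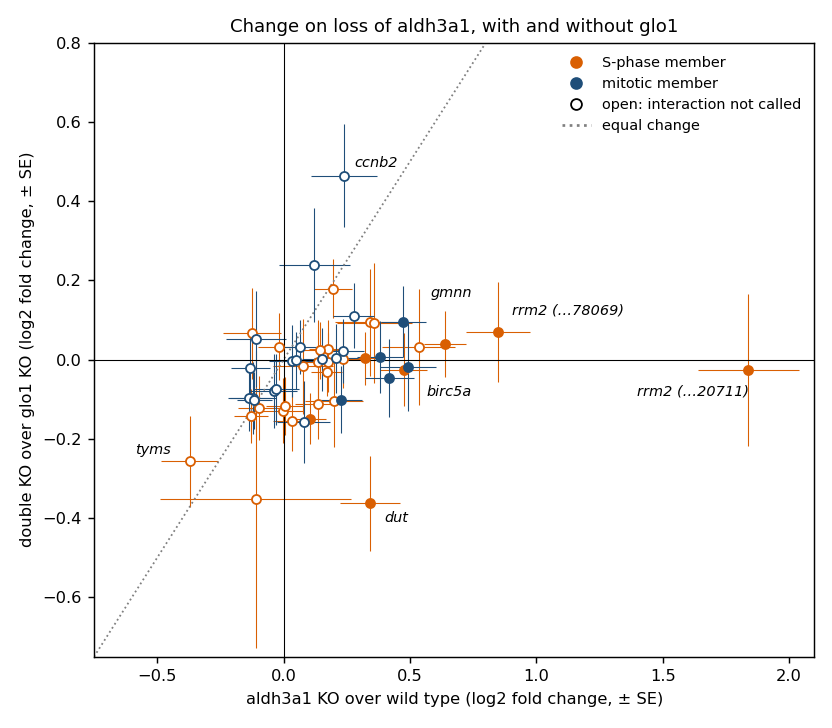
Log2 fold change on loss of aldh3a1 in the absence of glo1 (double knockout over glo1 knockout, vertical) against that in its presence (aldh3a1 knockout over wild type, horizontal) for the 51 genes, with SE bars; filled points have a called interaction and the dotted line marks equal change. The 12 filled points lie below the line, as a negative interaction requires, rrm2 (ENSDARG00000020711) farthest, at -0.03 and 1.84.

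Other genes of the pathway were counted in the same fit. Of 41 replication genes outside the members, 26 were higher and 1 was lower in the aldh3a1 knockout, 6 and 1 in the glo1 knockout, and 13 and 2 in the double knockout, with medians of 0.28, 0.15 and 0.17. The shares higher were 63.4%, 14.6% and 31.7%, beside 29.4%, 14.6% and 23.9% of all genes, and beside 48.3%, 17.2% and 17.2% of the S-phase members. In the double knockout these other genes thus lay above the background and the members below it, a difference that was not tested. The smallest adjusted p in the aldh3a1 knockout belonged to the clamp loader gene rfc4 (log2 fold change 0.49), the polymerase epsilon subunit gene pole2 (0.68) and the MCM-binding protein gene mcmbp (0.37). In the glo1 knockout the GINS helicase subunit gene gins4 (log2 fold change 0.75) and the origin recognition gene orc5 (0.57) rose. Gins4 averaged 11.1 CPM in the aldh3a1 knockout, 16.6 CPM in the glo1 knockout and 9.84 CPM in the double knockout, against 9.91 CPM in wild type. In the double knockout orc4 (0.52), pole2 (0.48) and orc5 (0.57) led. Orc4 averaged 16.75, 14.08 and 16.07 CPM in the aldh3a1, glo1 and double knockouts, against 11.23 CPM in wild type. Orc5 averaged 8.943, 8.941 and 8.893 CPM in the same order, against 6.003 CPM in wild type.

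Of 64 other mitosis genes, 23 were higher and 1 was lower in the aldh3a1 knockout, 6 and none in the glo1 knockout by edgeR, where 10 were at an unadjusted p under 0.05, and 10 and 3 in the double knockout, with medians of 0.15, 0.03 and 0.06. The shares higher were 35.9%, 9.38% and 15.6%, near the 29.4% of all genes in the aldh3a1 knockout and below the 14.6% and 23.9% of all genes in the other knockouts. Ska2, a kinetochore protein that holds microtubules, rose in each knockout (log2 fold changes of 0.60, 0.26 and 0.42 in the aldh3a1, glo1 and double knockouts). Cdc25b, the phosphatase that activates CDK1, rose in the aldh3a1 knockout (0.72) and the double knockout (0.48), as did the CDK subunit gene cks2 (ENSDARG00000117089) in the aldh3a1 knockout (0.62). Aspm, a spindle pole gene, rose in the glo1 knockout (0.38), and the kinetochore gene cenpp rose in the glo1 knockout (0.39) and the double knockout (0.54). Cenpp was also high in the aldh3a1 knockout, with means of 10.02, 8.88 and 9.87 CPM in the aldh3a1, glo1 and double knockouts, against 6.79 CPM in wild type.

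Genes that decide whether a cell leaves G1 were called in both directions. Of 22 D and E cyclins, their kinases, Rb and E2F genes, 10 were higher and 6 lower in the aldh3a1 knockout, and 7 higher and 3 lower in each of the glo1 and double knockouts. That is 45.5%, 31.8% and 31.8% higher, beside the shares of 29.4%, 14.6% and 23.9% over all genes. The E2F partner gene tfdp1 (ENSDARG00000016304) rose in the aldh3a1 knockout (log2 fold change 0.82) and the double knockout (0.50), and the repressor gene e2f6 rose in each knockout (0.69, 0.30 and 0.47 in the aldh3a1, glo1 and double knockouts). The cyclin D2 gene ccnd2 (ENSDARG00000051748) averaged 2.56 CPM in the aldh3a1 knockout against 7.35 CPM in wild type, a log2 fold change of -1.52. Cdk6, a partner of the D cyclins, fell by 0.52 in the glo1 knockout and by 1.03 in the double knockout on the log2 scale. It was also low in the aldh3a1 knockout: cdk6 averaged 3.40, 5.35 and 3.76 CPM in the aldh3a1, glo1 and double knockouts, against 7.69 CPM in wild type.

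Inhibitors of the cycle were mostly called higher where they were called. Of 10 such genes, the aldh3a1 knockout had 5 higher, the glo1 knockout 2 higher, and the double knockout 5 higher and 1 lower. Over all genes tested, 29.4%, 14.6% and 23.9% were higher in these comparisons. The p27 gene cdkn1b (ENSDARG00000054271) rose in each knockout, by log2 fold changes of 0.55, 0.24 and 0.44, and averaged 84.7 CPM in the aldh3a1 knockout, 68.3 CPM in the glo1 knockout and 78.7 CPM in the double knockout, against 57.9 CPM in wild type. The p57 genes cdkn1ca (log2 fold change 0.42) and cdkn1cb (1.02) rose in the aldh3a1 knockout. The antiproliferative gene btg2 rose in the glo1 knockout (0.75) and the double knockout (0.67).

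Of 20 p53 targets and DNA damage genes, 4 were higher and 4 lower in the aldh3a1 knockout, 3 and 4 in the glo1 knockout, and 7 and 5 in the double knockout. The shares called in either direction were 40.0%, 35.0% and 60.0%, beside 61.3%, 32.8% and 50.3% of all genes. In the aldh3a1 knockout sestrin 1 (sesn1) fell by 1.22 on the log2 scale and zmat3 by 1.05, while the cell death gene bax (ENSDARG00000020623) rose by 0.40. Zmat3 was also called lower in the double knockout (log2 fold change -1.159). It averaged 1.517, 1.774 and 1.412 CPM in the aldh3a1, glo1 and double knockouts, against 3.158 CPM in wild type. The sesn1 means were likewise below wild type in each, at 25.39, 44.59 and 42.03 CPM against 58.94 CPM. The growth arrest genes gadd45b (ENSDARG00000027744, log2 fold change 0.89; ENSDARG00000013576, 0.83) and gadd45a (ENSDARG00000104571, 0.75) rose in the glo1 knockout, and both gadd45b IDs rose in the double knockout (0.93 and 0.84).

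Markers of tissues moved with genotype beside these genes, and their counts stand against 29.4% of all genes higher and 32% lower in the aldh3a1 knockout, 14.6% and 18.1% in the glo1 knockout, and 23.9% and 26.4% in the double knockout. Of 17 neural progenitor and radial glia markers, 11 were higher and 3 were lower in the aldh3a1 knockout. Their summed level ran from 1339 to 1559 CPM there, against 1020 to 1267 CPM in wild type. It also lay above wild type in the glo1 knockout (1269 to 1319 CPM) and the double knockout (1359 to 1560 CPM). In the aldh3a1 knockout, retinal progenitor markers of the ciliary margin were higher for 7 of 11 and lower for none by edgeR. Their sums were 516 to 560 CPM there, 483 to 511 CPM in the glo1 knockout and 492 to 522 CPM in the double knockout. Wild type had 393 to 427 CPM. Neuron markers, which mark cells that no longer divide, were higher for 8 of 11 and lower for 2 in the aldh3a1 knockout, with sums of 4690 to 5119 CPM against 3585 to 4062 CPM in wild type. In the same comparison 9 of 11 skeletal muscle markers, 10 of 10 liver markers and 10 of 11 gut markers were lower.

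The muscle sum ran from 24945 to 38607 CPM in the aldh3a1 knockout, against 48194 to 56972 CPM in wild type. It overlapped with wild type in the glo1 knockout (51904 to 58969 CPM) and the double knockout (46858 to 63190 CPM). The liver sum ran from 327 to 654 CPM in the aldh3a1 knockout, against 1383 to 4029 CPM in wild type. It also lay below wild type in the glo1 knockout (892 to 1163 CPM) and the double knockout (452 to 758 CPM). In the glo1 knockout, progenitor markers were higher for 7 of 17 neural and 8 of 11 retinal genes, and lower for 1 neural gene, with 9 of 10 liver and 10 of 11 gut markers lower. In the double knockout, 10 of 17 neural and 7 of 11 retinal progenitor markers were higher, 1 neural marker was lower, 10 of 10 liver and 9 of 11 gut markers were lower, and 8 of 8 epidermis markers were higher. Neuron markers were higher for 3 and lower for 2 of 11 in the glo1 knockout, and higher for 4 and lower for 2 in the double knockout. Skeletal muscle markers were higher for 2 and 3 of 11 in the glo1 and double knockouts. Of the remaining lists, erythroid markers were higher for 2, 3 and 3 of 10 in the aldh3a1, glo1 and double knockouts and lower for 2 in the aldh3a1 knockout. Their sums were 380 to 512, 467 to 651 and 536 to 668 CPM in these knockouts, against 336 to 462 CPM in wild type. The glo1 and double knockout sums thus lay wholly above wild type. Blood stem and lymphoid markers were higher for 1 of 8 in each knockout and lower for 1 and 2 in the aldh3a1 and double knockouts. Epidermis markers were higher for 3 of 8 and lower for 1 in the aldh3a1 knockout and higher for 2 in the glo1 knockout, and germ cell markers were higher for 2 of 4 in the double knockout. None of the markers of these lists was at 0 in a whole genotype. The part of these shifts in the levels of the replication and mitosis genes was not tested.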

How the data were processed

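RNA of whole zebrafish larvae was measured in 20 libraries. The authors deposited raw gene counts, all whole numbers, made with featureCounts 2.0.3 on build GRCz11, per the submitters' processing notes. Per the labels' protocols, libraries were strand-specific mRNA libraries. The sources used here name no aligner, annotation or strand setting, so overlapping, antisense and near-identical genes cannot be told apart with certainty.

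Symbols were matched to 29201 of 32520 gene IDs, of which 6314 shared a symbol with another ID. Birc5a was matched by its stem to the ID named BIRC5. The RefSeq gene table of assembly GRCz12tu gave synonyms and gene order. The members and all gene lists were chosen with earlier results of these data known. Gene lengths were not used here, so levels are not compared between genes, and a planned search of promoter sequences for motifs was not done.

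All 20 libraries entered a single edgeR 4.0.16 model, run in R 4.3.3 (TMM factors, filterByExpr by genotype, robust quasi-likelihood F-test, two-sided, genotype as the sole factor, 16 residual degrees of freedom, common biological coefficient of variation 0.13). It tested 22234 genes, with Benjamini-Hochberg adjustment over all of them and a threshold of 0.05. A standard error is the size of the log2 fold change divided by the square root of F. CPM values use the TMM factors. The method was tested on simulated data.

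The naming rule gave values per library for pcna, mki67, cdk1 and top2a. It also gave them for the 3 S-phase and 3 mitotic members of smallest adjusted p in each comparison with wild type. Of each other list, up to 3 called genes per comparison were named. A gene of those lists that is not named for a comparison can therefore still have changed in it. The per-genotype values of tyms, dut, gins4, cdk6, sesn1, zmat3, cenpp, orc4 and orc5 and the replicate value of ccne2 were added after values were seen.

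Alternatives were 4 other scalings, DESeq2 1.42.0, limma-voom (limma 3.58.1), 2 other filters, a replicate block, no robust estimation, separate fits on the genotypes of each comparison, a 1.2-fold threshold, and each library left out in turn. Figures were drawn with matplotlib 3.10.9.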

Additional observations from a re-analysis of the deposited data

Results flagged for a closer look

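In the aldh3a1 knockout, pcna stood at 289 CPM in replicate 3 and at 234 to 248 CPM in the other libraries, a gap of 0.745 of the group's range. In the glo1 knockout, the mitotic level was -0.106 in replicate 3 and 0.0201 to 0.0717 in the others, a gap of 0.71. Of 76 groups of 5 libraries checked, these 2 held a library that stood apart, and chance gives about 1 in 20.

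The change on loss of aldh3a1 differed between larvae without and with glo1 for 12 genes, by edgeR's test of the difference with Benjamini-Hochberg adjustment over all genes. The differences on the log2 scale, without glo1 minus with glo1, were -1.87 for rrm2 (ENSDARG00000020711), -0.78 for rrm2 (ENSDARG00000078069), -0.71 for dut, -0.60 for gmnn and -0.51 for birc5a. They were -0.50 for rpa3, -0.46 for ccnb3, -0.38 for ccnb1, -0.37 for ccna2, -0.33 for nusap1, -0.32 for pcna and -0.25 for lig1. Of the members 23.5% had a called negative difference, beside 16.9% of all genes tested. The 12 were picked by this difference, so a lower change without glo1 than with it was fixed by the selection. For 11 of the 12 the change without glo1 lay between -0.15 and 0.10, the exception being dut at -0.36. The change with glo1 was called in the aldh3a1 knockout for all but lig1.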

How the results depend on the processing

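Counts of members, higher and lower, moved by over 1.5 times as follows. Upper quartile factors gave 14 higher and 3 lower in the aldh3a1 knockout and 1 higher in the double knockout over the aldh3a1 knockout. Total counts gave 10 higher and 7 lower in the aldh3a1 knockout, 1 higher in the glo1 knockout, 4 higher and 15 lower in the double knockout, and 1 lower in the double over the glo1 knockout. TMM factors without ribosomal protein and mitochondrial genes gave 11 higher in the glo1 knockout and 15 higher in the double knockout. DESeq2, limma-voom and the fit without robust estimation each gave 1 lower in the double over the glo1 knockout. No filter and the filter of 1 CPM each gave 1 higher in the double over the aldh3a1 knockout. The 1.2-fold threshold gave 8 higher and 0 lower in the aldh3a1 knockout, 1 and 1 in the glo1 knockout, 3 higher in the double knockout, 3 lower over the aldh3a1 knockout, 0 higher over the glo1 knockout and 4 negative interactions. Fits on the compared genotypes gave 14 higher in the glo1 knockout, 4 lower in the double over the aldh3a1 knockout and 2 higher over the glo1 knockout. The causes were not tested, except that a fold threshold asks for larger changes.

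With a library left out, the ranges were 15 to 22 higher and 1 to 2 lower in the aldh3a1 knockout, 4 to 10 and 2 to 3 in the glo1 knockout, 6 to 12 and 2 to 4 in the double knockout, 0 to 1 and 4 to 10 in the double over the aldh3a1 knockout, 0 to 1 and 0 to 4 over the glo1 knockout, and 9 to 15 negative interactions. S-phase minus mitosis ranged from -0.013 to 0.066, 0.039 to 0.107 and 0.026 to 0.081 in the aldh3a1, glo1 and double knockouts, each minus wild type.

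The deviations of same-numbered libraries correlated weakly (30 pairs, correlation from -0.126 to 0.231, 4 above 0.1). The median correlation was 0.0126, beside -0.00117 for pairs of different numbers. Of 20 libraries, 6 correlated best with their own number. Weak correlation cannot exclude a shared clutch, batch or preparation, so what an equal number means stays unknown. With the replicate number as a block, 1 member (mcm7) was higher in the double over the aldh3a1 knockout and 1 (dut) lower over the glo1 knockout. Under the block the calls of rrm1 and pole in the aldh3a1 knockout, rpa3 in the glo1 knockout, tpx2 in the double knockout, rpa3 in the double over the aldh3a1 knockout and the nusap1 interaction did not pass (adjusted p from 0.0517 to 0.0694). No called result changed sign under any setting. Over 79 genes, 5316 of 5603 results under other settings and 9181 of 9480 with a library left out stayed on the same side of the threshold. Results called in neither fit count among these even where their direction changed. Depth limits mcm6 (ENSDARG00000033231), at under 1 CPM.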

Other observations

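Between glo1 and msh6 in the GRCz12tu gene order, 37 of the 52 protein-coding genes matched 1 ID each and 30 were tested, a list made after the values of msh6 were seen. Of these 30, 7 were higher and 4 lower in the glo1 knockout than in wild type, and 5 were higher and 5 lower in the double knockout than in the aldh3a1 knockout. Over all genes the shares were 14.6% higher and 18.1% lower, and 11.1% higher and 11.6% lower.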
